A study of Mus musculus with 12 samples.

Results

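The comparison described here was that of 2 gates of Schwann cells sorted from mouse sciatic nerves on day 5 after birth (P5), the mSC gate against the nmSC gate. It used 8 of the 12 RNA sequencing libraries of the series, 4 of each gate, and it was made over the 12344 genes, of 25700 listed, that were tested and lay above a low-signal background. The mice were P0Cre-/+ : ReYFPTg/+ : βAct-DsRedTg/+ on a C57bl/6J background, and all groups carried the same alleles. In these animals the P0Cre transgene, which is active in the Schwann cell lineage, switches on eYFP in Schwann cells, while dsRed is made in every cell. Fluorescent Schwann cells were split by side scatter (SSC-A), a measure of granularity: the mSC gate took the more granular cells and is enriched in myelinating Schwann cells, the nmSC gate took the less granular cells and is enriched in cells that did not make myelin at that age. Neither gate is pure. Each library held the cells of 1 mouse, and the libraries with the same number in both gates came from the same mouse. A further gate, allSC, took both kinds together in 4 other libraries of the same mice.

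Schwann cells are the glia of peripheral nerves. After birth they sort axons, stop dividing, and either wrap 1 large axon in myelin or keep several small axons in the grooves of a non-myelinating (Remak) cell. Myelination is run by transcription factors such as SOX10 and EGR2 and demands large amounts of membrane lipid and protein, whereas cells that have not entered this path keep the programmes of immature Schwann cells, including division, growth factor receptors and an abundant extracellular matrix. The comparison asked which genes other than the 10 markers named by the study, among them Mki67, Top2a, Ngfr, Ncam1, L1cam, Pou3f1, Cdkn1c, Mbp and Ncmap, differed between the gates.

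The libraries held 8180927 to 16918122 counts. Levels are given as CPM (counts scaled to a fixed library total) with TMM-adjusted totals, fold changes as log2 of mSC over nmSC (positive where mSC was higher) with the standard error (SE) of the paired fit, and a gene is called where its adjusted p was under 0.05 over all 18597 tested genes. The library of mSC mouse 4 stood apart from the other mSC libraries: it was far from the other 3 in 6.34% of genes above the background, against 0.332% to 1.90% of genes for each of the other 7 libraries. Without it 3847 genes were called higher in mSC and 2071 higher in nmSC.

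The labels were checked against marker genes. Sox10, the lineage factor of Schwann cells, was read at 124, 285, 337 and 321 CPM in the mSC libraries of mice 1 to 4 and at 278, 325, 207 and 253 CPM in the nmSC libraries. The gates overlapped, and the difference (-0.12 ± 0.24, adjusted p = 0.718) did not pass the test. S100b, a calcium-binding protein used to mark Schwann cells, was higher in mSC (3.04), as was, more weakly, Egr2 (0.48, adjusted p = 0.00658), while the neuregulin receptor gene Erbb3 was higher in nmSC (-0.82). The direction for Egr2 turned under scaling by library size alone. Of the 15 immune markers 2 lay above the background, and their summed level was 18.1 to 27.5 CPM in mSC and 25 to 37 CPM in nmSC. The 9 endothelial markers summed to 54.3 to 75.3 CPM in mSC and 20.6 to 34.7 CPM in nmSC, carried by Egfl7 and Kdr, while Pecam1 and Cdh5 stayed below the background. The 14 markers of fibroblast-like and perineurial cells summed to 2224 to 4510 CPM in mSC and 12845 to 19178 CPM in nmSC. The collagen genes Col3a1, Col1a2 and Col1a1, which Schwann cells also transcribe, held most of this. Of the 8 markers above the background 4 were higher in nmSC, among them Itgb4 (-0.70), and 1, Slc2a1, was higher in mSC (0.62). Dcn (12.8 CPM in mSC against 8.48 CPM in nmSC) and Lum (5.0 against 2.18 CPM) lay above the background and were not called. Pdgfra read 2.34 CPM in mSC and 2.35 CPM in nmSC and lay below the background. The 5 melanocyte markers summed to 109.9 to 125 CPM in mSC and 31.4 to 45.8 CPM in nmSC, carried by Pmel. Tyrp1 went the other way (2.15 CPM in mSC against 10.7 CPM in nmSC, -2.33). Dct was not called (5.36 against 5.91 CPM), and Mlana was at 0.0411 and 0.240 CPM. None of the markers checked was at 0 in all 8 libraries. The part of other cells in the results below was not tested.

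The low-signal background was read from the 1511 olfactory and vomeronasal receptor genes, which Schwann cells are not known to use. As 1 group they stood at 0.188 to 0.229 RPKM (CPM per kilobase of exon) in mSC and at 0.246 to 0.391 RPKM in nmSC, 1.61 times higher in nmSC with no overlap between the gates (p = 0.0286 by a two-sided exact permutation test, which can give no lower p with 4 against 4 libraries). The permutation test took the libraries as unpaired, although those with the same number came from the same mouse. A gene was taken as above the background where its mean over both gates was over the 95th percentile of these receptor genes, 0.623 RPKM. Of the 6253 tested genes that were not above it, 25.8% were called, and 25.1% were called higher in nmSC, so that calls among low genes leaned almost all 1 way. The genes at or under that level are left out of what follows.

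Scaling decided how the calls split. The 50 most abundant genes took 26.9% to 31.6% of the counts of the mSC libraries and 17.9% to 18.9% of those of the nmSC libraries, and TMM set the totals by factors of 0.744 to 0.871 in mSC and 1.16 to 1.27 in nmSC. Under TMM 3584 genes were called higher in mSC and 1973 in nmSC, so that 64.5% of calls were higher in mSC. With library size alone the same counts gave 1362 and 6117 genes (18.2% higher in mSC), without the 50 top genes in the total 1934 and 4315 (30.9%), and with the size factors of DESeq2 3998 and 1763 (69.4%). Over all tested genes the log2 fold change had a median of -0.18 under TMM and moved by -0.56 with library size alone. Where the median of a family is given it is to be read against that of all genes above the background, 0.12, and counts with library size alone stand beside those of several families.

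**Figure D1:**
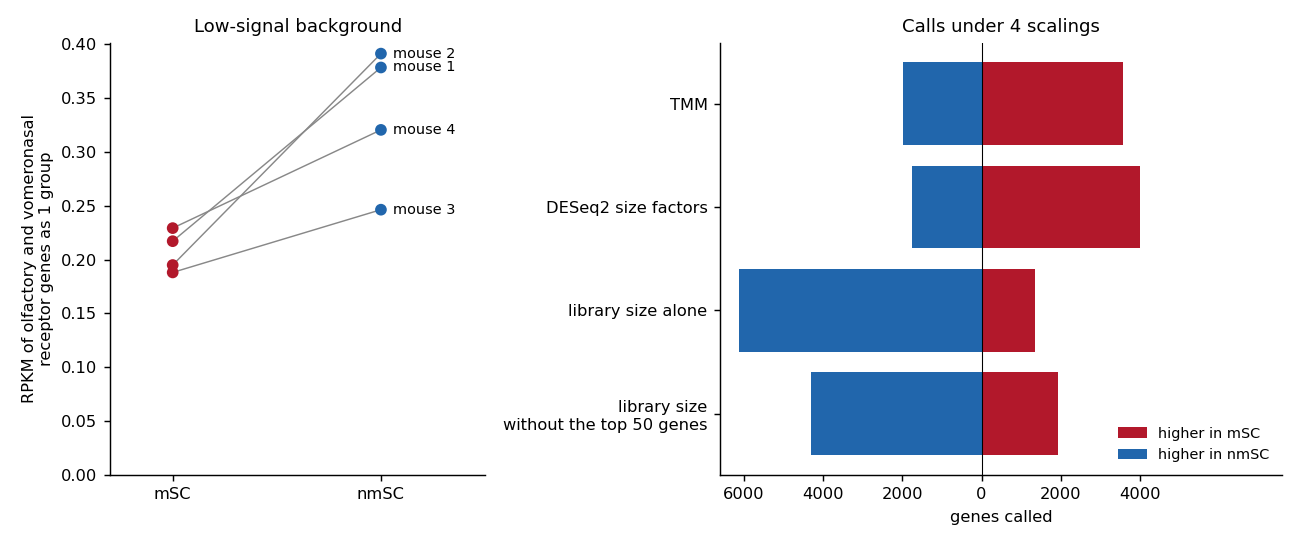
Left, the RPKM of the olfactory and vomeronasal receptor genes as 1 group in each mSC and nmSC library, with a line joining the libraries of 1 mouse; right, the genes above the background called higher in mSC (red, to the right) or in nmSC (blue, to the left) under 4 scalings. All 4 nmSC libraries lie above all mSC libraries on the left, and the split of calls on the right goes from 3584 against 1973 genes under TMM to 1362 against 6117 with library size alone.

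Of all tested genes 38.6% were called, and of the 12344 genes above the background 45.0% were (29.0% of the 12344 higher in mSC and 16.0% of them higher in nmSC). The calls of at least 2-fold were nearer to balance, with 1317 genes (10.7%) higher in mSC and 1106 (8.96%) higher in nmSC. The libraries of the gates did not overlap for 4870 genes (39.5%). The difference had the same sign in all 4 mice for 5069 of the 5557 called genes. Of these 5557, 98.5% had an allSC mean between the means of the mSC and nmSC gates. As allSC took both kinds of cell together from the same mice, a mean in between follows largely from the gating. It is no separate test of the calls. In RNA of sorted cells a higher share of cells of a type and more RNA per cell cannot be told apart. The labels do not say which mice were male or female, so sex was not used.

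**Figure D2:**
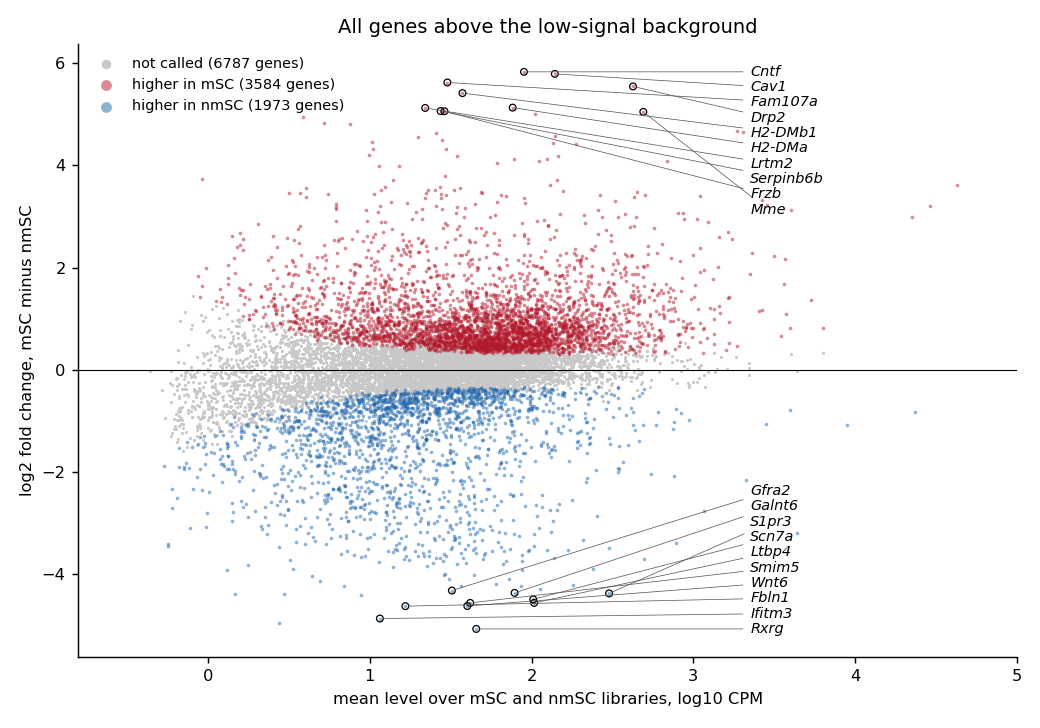
The log2 fold change of each gene above the background (mSC minus nmSC, vertical axis) against its mean level (log10 CPM, horizontal axis), with called genes in colour and the 10 leading genes of each direction circled and named. The leading genes reach 5.83 (Cntf) and -5.08 (Rxrg), and called genes are found at all levels.

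The genes with the largest rises in mSC came from several classes. Cntf, which encodes ciliary neurotrophic factor, a survival factor for neurons (GRCm38, chr19:12763660-12765632), read 143, 158, 153 and 252 CPM in the mSC libraries of mice 1 to 4 and 3.17, 1.44, 3.21 and 4.54 CPM in the nmSC libraries. The change was 5.83 ± 0.24 (SE, adjusted p = 9.16e-11), about 57-fold, and the highest mSC value was that of mouse 4. Cav1, the gene of the caveolar coat protein caveolin-1 (chr6:17306335-17341452), read 323, 255, 246 and 269 CPM in mSC and 4.22, 4.5, 3.51 and 7.44 CPM in nmSC (5.79 ± 0.21). Drp2, whose product links the periaxin complex to dystroglycan in the outer Schwann cell membrane, was more abundant still, with 1091, 844, 895 and 486 CPM in mSC and 13.8, 12.9, 20 and 22.2 CPM in nmSC (5.55 ± 0.26). Mme, the gene of the membrane peptidase neprilysin, went from 28.3 ± 5.07 CPM in nmSC to 951 ± 250.3 CPM in mSC (mean ± SD, n = 4). H2-DMb1 and H2-DMa, whose products load peptides onto MHC class II, were both higher in mSC, with 73.1 against 1.68 CPM (5.42) and 149 against 4.17 CPM (5.13). The list of the 10 largest also held Fam107a (5.62), Lrtm2 (5.13), the protease inhibitor gene Serpinb6b (5.07) and Frzb (5.06).

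In the opposite direction Rxrg led. This retinoid X receptor gene (chr1:167598384-167639623) read 1.29, 3.3, 2.33 and 3.86 CPM in the mSC libraries and 60.8, 85.3, 105 and 102 CPM in the nmSC libraries (-5.08 ± 0.21, adjusted p = 9.7e-11). Scn7a, which encodes a sodium channel that senses sodium rather than carrying action potentials (chr2:66673425-66784914), was the steadiest of the group, with 7.94, 8.07, 9.15 and 9.47 CPM in mSC and 181, 191, 199.8 and 212 CPM in nmSC (-4.5 ± 0.14). S1pr3, a receptor for sphingosine-1-phosphate, had the highest level of these genes, 574 ± 118 CPM in nmSC and 27.9 ± 10.7 CPM in mSC. No library of either gate overlapped the other gate for any of these genes, which were chosen as the largest changes. Over all genes above the background the gates did not overlap for 39.5%. Ifitm3 (-4.88), an interferon-induced membrane protein, Fbln1 (-4.63), Wnt6 (-4.63), Smim5 (-4.57), Ltbp4 (-4.57), Galnt6 (-4.37) and Gfra2 (-4.33) made up the rest. Values of Ifitm3 and Fbln1 in mSC were near 1 CPM (0.779 and 1.19 CPM), where 3 counts are worth 0.177 to 0.278 CPM, so that their fold changes are less precise than those of the other genes.

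The 83 families of genes looked at were seldom of 1 direction. In 77 of them at least 1 member was called higher in each gate, and in 63 this was so for changes of at least 2-fold. Of all genes above the background 29.0% were called higher in mSC and 16.0% in nmSC. A family of many genes will mostly hold calls of both directions at such shares, so these counts are a description. The share called differed from class to class. Of 669 transcription factor genes above the background 82 were higher in mSC and 108 in nmSC (28.4% called), of 218 receptor genes 56 and 79 (61.9%), of 255 secreted factor genes 82 and 90 (67.5%), and of 1194 genes of other families 439 and 261 (58.6%), beside 45.0% of all genes above the background. The count for transcription factors was larger in mSC with the size factors of DESeq2 (101 and 97), with its Wald test (99 and 95) and without the library of mSC mouse 4 (111 and 110). With library size alone the counts were 22 and 455 for transcription factors, 27 and 129 for receptors and 53 and 137 for secreted factors. The zinc finger genes of the Zfp, Zscan and Zkscan series made up 354 of the 669 transcription factor genes, and 35 of them were higher in mSC and 30 in nmSC, with a median of -0.03 (8 and 247 with library size alone, so that the direction turned).

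**Figure D3:**
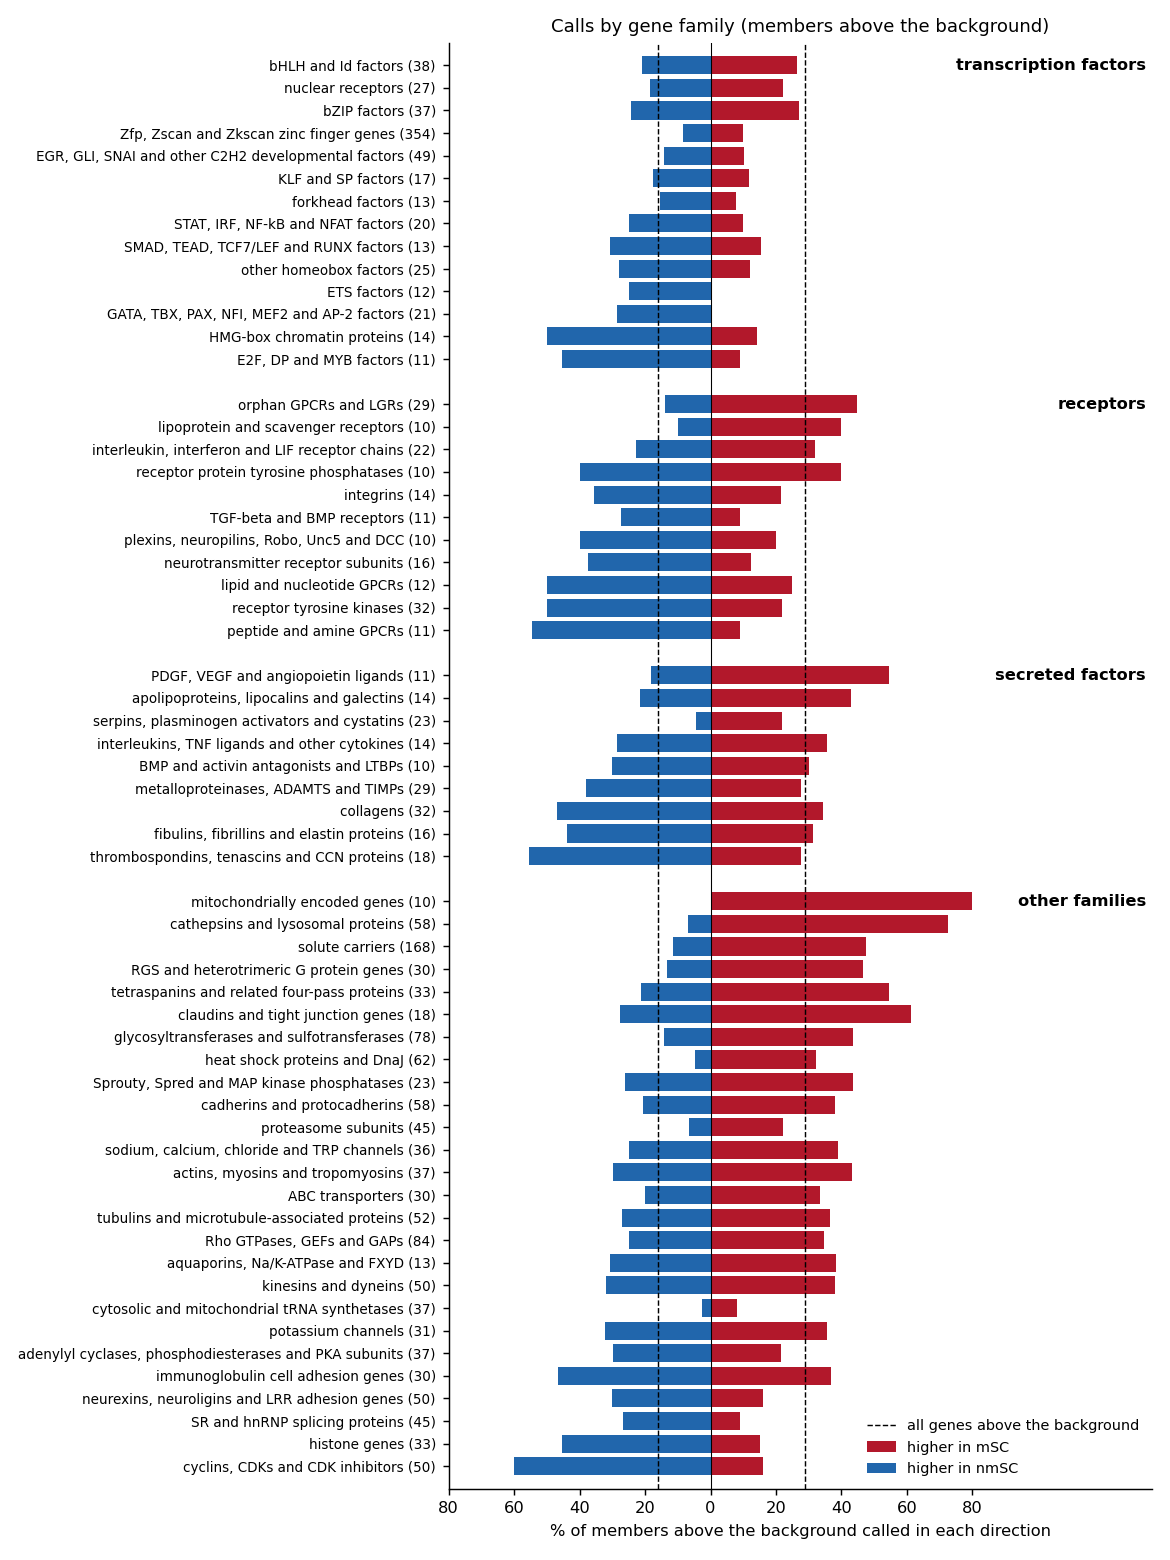
For each family with at least 10 members above the background (their number in brackets), the share of these members called higher in mSC (red) or in nmSC (blue); dashed lines mark the shares of all genes above the background, 29.0% and 16.0%. Lysosomal and mitochondrially encoded genes extend farthest to the right and cyclin and CDK genes farthest to the left.

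The largest differences among transcription factor genes were on the nmSC side. Egr3, an immediate early zinc finger factor, read 4.82, 6.16, 5.51 and 3.49 CPM in mSC and 97.8, 80.5, 65.4 and 87 CPM in nmSC (-4.03 ± 0.21, adjusted p = 7.8e-10). Foxm1, an activator of mitotic genes, read 4.07, 4.51, 7.52 and 2.24 CPM in mSC and 48, 56.1, 88.2 and 67 CPM in nmSC (-3.8 ± 0.23), and E2f8 and E2f7, the atypical E2F repressors, went with it (-3.57 and -2.78). Of 11 E2F, DP and MYB genes 5 were higher in nmSC and 1 in mSC, with a median of -0.43. Sox6 and Sox5, members of the SOXD group that lack an activation domain, were both higher in nmSC, Sox6 at 26.1, 30.5, 25.6 and 30.6 CPM against 2.24, 3.91, 3.8 and 1.5 CPM in mSC (-3.3 ± 0.23), Sox5 at 10.4 against 30.1 CPM (mSC against nmSC, -1.53). The 9 SOX genes above the background numbered 4 higher in nmSC and 1 in mSC.

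Further factors higher in nmSC came from several families. Among them were Egr1 (-1.97, 103 against 394 CPM), the growth regulator Myc (-2.57), the Notch target Hes1 (-2.25), the ETS factors Etv5 (-2.12) and Ets1 (-1.55), Cebpd (-2.47) and the interferon regulatory factor Irf1 (-2.69, 31.5 against 199 CPM). Of the 18 genes of a list of immediate early and stress genes that tissue dissociation is known to induce, 7 were higher in nmSC and 1 in mSC, and their summed level was 3101 to 5788 CPM in mSC and 4571 to 5743 CPM in nmSC. The part of dissociation in the values of Egr1, Egr3 and Irf1 was not tested. No ETS gene of 12 and no gene of 21 in the GATA, TBX, PAX, NFI, MEF2 and AP-2 group was called higher in mSC, with 3 and 6 called higher in nmSC. Of all transcription factor genes above the background 12.3% were called higher in mSC and 16.1% in nmSC. At such shares a group of 12 or 21 genes may hold no call toward mSC, so these counts are a description. The orphan nuclear receptor gene Nr2f2 was higher in nmSC as well (-1.48). Zfp36l1 (-3.28), placed with the zinc finger genes by its symbol, encodes an RNA-binding protein.

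Factor genes that rose in mSC were also of several families. Tead4, a DNA-binding partner of the Hippo effectors YAP and TAZ, read 22.5, 21.5, 22 and 24.6 CPM in mSC and 4.9, 4.5, 5.0 and 5.0 CPM in nmSC (2.22 ± 0.16, adjusted p = 1.63e-08), while its paralogue Tead2 was higher in nmSC (-1.37, 10.8 against 27.5 CPM). Dbp, a clock-controlled bZIP factor, read 18.6, 37.5, 45.8 and 62.3 CPM in mSC and 10.9, 8.92, 12.2 and 11 CPM in nmSC (1.85 ± 0.23), with a wide spread among the mSC libraries. The zinc finger genes Zfp612 (2.05) and Zkscan16 (1.71) were among the 5 leading factors. The first of them, Zfp91 (2.55, 221 against 37.2 CPM), shares exons with Cntf, so its reads cannot be told apart from those of Cntf where counting does not separate overlapping genes. The nuclear receptor Nr4a2 was higher in mSC (1.69, 224 against 69.4 CPM), as were the bZIP factor Maf (1.31, 121 against 48.5 CPM), Stat6 (1.13), the chromatin organiser Satb1 (1.21), Klf4 (1.22) and the MYC antagonist Mxd4 (1.0). Mxd4 and Myc thus differed in opposite directions, as did Tead4 and Tead2.

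Receptor genes were split in the same manner, and within families different members led in each gate. Tbxa2r, the thromboxane A2 receptor, read 111, 111, 134 and 150.1 CPM in mSC and 8.83, 9.0, 17 and 13.5 CPM in nmSC (3.41 ± 0.17, adjusted p = 4.23e-10), and the nucleotide receptor gene P2ry2 174 against 42.6 CPM (2.03). S1pr3 and Lpar4, receptors for lysophospholipids in the same list, were higher in nmSC (-4.38 and -2.88), so that of 12 lipid and nucleotide receptor genes 3 were higher in mSC and 6 in nmSC. Ednrb, the endothelin B receptor, was among the most abundant receptor genes of the nmSC gate at 1721, 2004, 2159 and 2265 CPM, against 273, 294, 332 and 297 CPM in mSC (-2.76 ± 0.12). Of 9 adhesion G protein-coupled receptor genes 6 were higher in nmSC, with Adgrb3 at -2.37, and 1, Adgrg1, was higher in mSC (0.68), a call that was lost with library size alone. Orphan receptors leaned to mSC, with 13 of 29 higher there and 4 higher in nmSC, a lean that turned with library size alone (6 and 9). Gpr155 (1.85) and Gpr176 (1.68) led them, while Lgr5, a receptor for R-spondins that is known from epithelial stem cells, was higher in nmSC, at 167, 210.1, 250.2 and 226 CPM against 8.41, 10.3, 13.3 and 11.7 CPM (-4.29 ± 0.15).

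The receptors for GDNF family ligands were a clear case of exchange. Gfra1, the co-receptor for GDNF (chr19:58235604-58455909), read 176, 153, 158 and 114 CPM in mSC and 33.7, 27.5, 41 and 44.6 CPM in nmSC (2.03 ± 0.18, adjusted p = 1.93e-07). Gfra2, the co-receptor for neurturin (chr14:70890120-70979838), read 2.78, 2.86, 3.49 and 2.74 CPM in mSC and 45.9, 54.3, 77.2 and 68.2 CPM in nmSC (-4.33 ± 0.17, adjusted p = 6.41e-11). The gates overlapped for neither gene, and they did not overlap for 39.5% of all genes above the background. The genes went in opposite directions in all 4 mice, but a direction shared by all 4 mice was asked of every gene named by the rule. The sortilin-related genes Sorcs1 (1.29, 309.7 against 125 CPM) and Sorcs2 (-3.5, 7.26 against 82.1 CPM) also differed in opposite directions, and so did Notch2 (1.08) and Notch1 (-1.04), Fzd3 (1.5) and Fzd1 (-2.67), and the receptor phosphatase genes Ptpre (1.73) and Ptprz1 (-3.55). These pairs came from the rule by which the leading genes of each family in each direction were named, so that the opposite signs are a description.

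Receptor tyrosine kinases were more often higher in nmSC, with 16 of 32 against 7 higher in mSC and a median of -0.42 beside 0.12 for all genes above the background. With library size alone the counts were 24 and 4. Axl, the receptor for GAS6, read 101, 115, 149.7 and 129 CPM in nmSC and 11.1, 11.2, 15 and 5.36 CPM in mSC (-3.54 ± 0.21), and Ntrk3, the receptor for neurotrophin-3, read 76.8, 63.6, 73.4 and 74.3 CPM in nmSC and 10.2, 7.9, 7.29 and 10.1 CPM in mSC (-3.03 ± 0.14). The Eph receptors Epha6 (2.53, 27.5 against 4.76 CPM) and Ephb6 (1.82, 364 against 101 CPM) were the largest rises of this family in mSC. For both, the library of mSC mouse 4 was the lowest of its gate.

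Integrin subunits, cytokine receptor chains and glutamate receptor subunits followed. Itga2b, the αIIb subunit known from platelets, was higher in mSC (17.4, 21.1, 17.8 and 15.5 CPM against 3.36, 2.8, 1.94 and 3.95 CPM, 2.6 ± 0.22), whereas Itgb3, the β3 subunit that pairs with αIIb or αV, was higher in nmSC (215, 227, 301 and 282 CPM against 23.1, 23.3, 18.6 and 14.1 CPM in mSC, -3.69 ± 0.18) and Itga1 with it (-2.94). Il6ra, the interleukin-6 receptor chain, was higher in mSC (2.69, 20.8 against 3.22 CPM), while Il6st, the signalling chain gp130 that it shares with other cytokine receptors, was higher in nmSC (-0.99, 69.7 against 136 CPM), and so was Il17rc (-3.03). Ackr1, a chemokine-binding receptor that does not signal, was higher in mSC (3.2, 20.8 against 2.28 CPM), but its exons overlap those of Cadm3, which was higher in mSC too (3.46, 90.1 against 8.23 CPM). The AMPA receptor subunit genes Gria2 (-2.46) and Gria4 (-2.72) and the TGF-beta co-receptor gene Tgfbr3 (-1.81, 165 against 572 CPM) were higher in nmSC.

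The class of secreted factor genes held the largest difference toward mSC of the 3 classes, that of Cntf. Its members were listed by gene symbol, and whether their products leave the cell was not tested. Frzb, a decoy that binds Wnt ligands (chr2:80411970-80447625), read 69, 53.9, 52.8 and 49.1 CPM in mSC and 2.3, 1.27, 0.747 and 2.44 CPM in nmSC (5.06 ± 0.25, adjusted p = 3.9e-10). Wnt6, a Wnt ligand (chr1:74771892-74785322), read 2.71, 4.08, 3.34 and 1.99 CPM in mSC and 61.5, 68.6, 106 and 72.6 CPM in nmSC (-4.63 ± 0.19, adjusted p = 1.06e-10). All 7 genes of the Wnt list above the background were called, 3 higher in mSC, among them Dkk3 (2.83, 219.8 against 31.3 CPM), and 4 higher in nmSC, among them the Wnt antagonist Sfrp1 (-1.83). Genes of Wnt antagonists were thus found on both sides.

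Growth factor genes were mixed in the same way. Fgf7 was read at 89.5, 89.9, 85.5 and 91.4 CPM in mSC and at 8.83, 6.63, 7.24 and 9.29 CPM in nmSC (3.49 ± 0.14), Fgf1 at 327 against 78.8 CPM (2.03), Tgfa, a ligand of the EGF receptor, at 66.6 against 5.42 CPM (3.55), and Bmp7 at 37.7 against 4.13 CPM (3.16). Of 9 FGF genes 4 were higher in each gate (3 and 4 with library size alone). Ptn, the gene of pleiotrophin, a heparin-binding growth factor and ligand of PTPRZ1, read 149, 159.9, 152 and 191 CPM in nmSC and 7.94, 9.2, 11.9 and 15 CPM in mSC (-3.92 ± 0.16). Its receptor gene Ptprz1 read 153, 168, 179 and 197 CPM in nmSC and 15.2, 14, 17.1 and 13.5 CPM in mSC (-3.55 ± 0.15). Cntf and Ptn, both counted with the neurotrophic factors, therefore marked opposite gates. Dhh, the Hedgehog ligand by which Schwann cells signal to the cells of the perineurium, was higher in mSC by a smaller step (634, 690.5, 633 and 554 CPM against 325, 336, 360.1 and 314 CPM, 0.91 ± 0.11), and the semaphorin gene Sema3b was abundant in both gates and higher in mSC (2011 against 845 CPM, 1.25), while Sema3g was higher in nmSC (-2.88).

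Modulators of growth factors and cytokines showed further contrasts. Igfbp2 was higher in mSC (1.97), and Igfbp3 (-2.54) and Igfbp4 (-2.21) were higher in nmSC, so that all 6 genes of IGFs and their binding proteins above the background were called, 3 in each direction. Ltbp4, which holds latent TGF-beta in the matrix, read 172, 185, 234 and 204 CPM in nmSC and 6.78, 9.72, 11.4 and 5.73 CPM in mSC (-4.57 ± 0.17), and the BMP and Wnt inhibitor gene Sostdc1 145 against 536 CPM (-1.93). Spp1, the gene of osteopontin, was higher in mSC (21.1, 16.1, 19.4 and 22.4 CPM against 1.34, 1.19, 0.299 and 0.856 CPM, 4.45 ± 0.29). Its lowest nmSC value lay near the level of 3 counts. Il16 was higher in mSC (2.24, 311 against 65.3 CPM), Cxcl1 in nmSC (-3.22, 2.1 against 19.2 CPM), and of the lipid carriers Apod was higher in mSC (3.99, 21.6 against 1.29 CPM) and Apoe in nmSC (-1.49, 186 against 510.5 CPM).

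**Figure D4:**
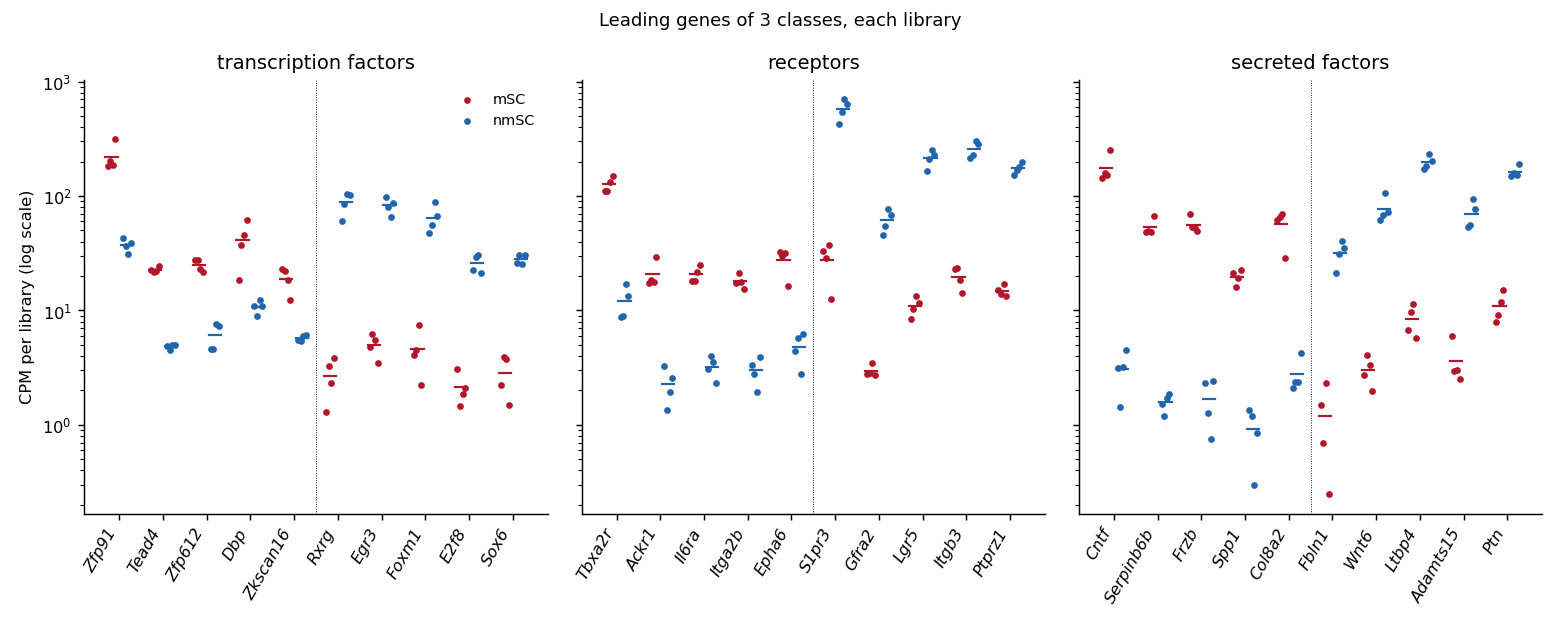
CPM (log scale) of the 5 leading genes of each direction among transcription factors, receptors and secreted factors, with 1 point per library in the order of mice 1 to 4, red for mSC and blue for nmSC, and a bar at the mean. The gates do not overlap for any of the 30 genes, which were chosen as the largest changes with 1 direction in all 4 mice. Over all genes above the background the gates do not overlap for 39.5%.

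The extracellular matrix changed in kind. Of 32 collagen genes above the background 11 were higher in mSC, 15 in nmSC (6 and 16 with library size alone). Col8a2 and Col8a1, the chains of the network-forming type VIII collagen, went apart: Col8a2 read 61.7, 65.6, 70.3 and 28.5 CPM in mSC and 2.11, 2.38, 2.39 and 4.28 CPM in nmSC (4.31 ± 0.31), and Col8a1 read 2.24, 4.25, 3.96 and 4.11 CPM in mSC and 48.9, 47.8, 35.2 and 39.2 CPM in nmSC (-3.56 ± 0.22). Col23a1 was higher in mSC (3.45) and the fibrillar Col11a1 in nmSC (-3.64, 12.9 against 161 CPM). No laminin or nidogen gene of 9 was called higher in mSC, 4 (44.4%) were higher in nmSC and 5 were not called. Of all genes above the background 29.0% were higher in mSC and 16.0% in nmSC. Among the 4 were Lama4 (-1.02, 515 against 1004 CPM) and Nid2 (-1.17, 467 against 1018 CPM). Without the library of mSC mouse 4, which was the lowest in Nid2, that gene stayed called.

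Matricellular proteins, which tune adhesion without building the matrix, leaned to nmSC most of the secreted families with at least 10 genes above the background. Of 18 thrombospondin, tenascin and CCN genes 10 were higher in nmSC and 5 in mSC, all 15 by at least 2-fold, and the median was -1.21. Postn (periostin) read 1134, 1294, 1704 and 1542 CPM in nmSC and 136, 126, 183 and 96.5 CPM in mSC (-3.4 ± 0.17), and Sparcl1 read 697, 804, 1182 and 1019 CPM and 61.1, 61.7, 82.7 and 75.2 CPM (-3.71 ± 0.13). The largest rise of that family in mSC was Ccn3 (3.25, 80.5 against 8.39 CPM). The small proteoglycan gene Ogn (osteoglycin) was the most abundant of the secreted factor genes with a large rise, at 1233, 1319.6, 1160.1 and 1493 CPM in mSC and 73.2, 65.8, 74.2 and 95.3 CPM in nmSC (4.08 ± 0.14). The proteases of the matrix were divided as well, with Adamts15 (-4.24) and the membrane-bound collagenase gene Mmp14 (-2.66, 29.8 against 184 CPM) higher in nmSC, and Adamtsl2, an ADAMTS relative that lacks protease activity, higher in mSC (2.88). Fbln1 (fibulin-1) read 21.2, 31.3, 40.5 and 35 CPM in nmSC and 1.49, 0.695, 2.33 and 0.249 CPM in mSC.

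Adhesion, junction and membrane genes that the 10 markers do not include were found in both gates. Cd9, a tetraspanin of the Schwann cell surface, read 5605, 6439, 6067 and 10507 CPM in mSC and 791, 758, 757 and 898 CPM in nmSC (3.13 ± 0.15), and Pllp (plasmolipin), a four-pass protein of myelin membranes, 1652 against 338 CPM (2.25). Of 33 tetraspanin and related genes 18 were higher in mSC, 7 in nmSC (13 and 11 with library size alone). Nfasc, an adhesion molecule of the nodal region, was higher in mSC (354, 314, 318 and 172 CPM against 26.3, 20, 28.6 and 25.4 CPM, 3.51 ± 0.19), while the immunoglobulin adhesion genes Ntm (-4.19) and Alcam (-2.98) were higher in nmSC. Cdh1 (E-cadherin), a component of autotypic junctions of myelinating cells, was higher in mSC (1.35, 339 against 132 CPM), and Cdh2 (N-cadherin) and Cdh10 were higher in nmSC (-2.38 and -2.96). Of 18 claudin and tight junction genes 11 were higher in mSC, among them Marveld3 (3.1) and Cldn12 (1.89), and 5 in nmSC, among them Cldn11 (-3.84, 3.23 against 41.8 CPM); the median was 0.93, and the counts were 9 and 7 with library size alone.

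Channel, transporter and lipid enzyme genes followed the same division. Kcnk1, a two-pore potassium channel, read 341, 365, 339 and 391 CPM in mSC and 19, 14, 16.4 and 18 CPM in nmSC (4.42 ± 0.14). The sodium channel subunit gene Scn3b was higher in mSC (2.15, 309.8 against 68.9 CPM), opposite to Scn7a. Of 168 solute carrier genes 80 were higher in mSC and 19 in nmSC, a lean that turned with library size alone (34 and 60). Slc2a6 (3.52) and Slc6a15 (3.16) led the rises in mSC and Slc43a3 (-4.11, 8.02 against 138 CPM) those in nmSC. The neighbouring transporter genes Abca8a (-3.9, 29.9 against 450.3 CPM) and Abca8b (-3.74) were higher in nmSC, and the lipid transporters Abca2 (2.01, 264 against 64 CPM) and Abcg1 (2.77) in mSC. Abca8a and Abca8b are close copies of each other, and reads may have been split between them. The carbohydrate sulfotransferase gene Chst2 read 195, 229, 183 and 213 CPM in mSC and 6.34, 6.46, 7.09 and 5.6 CPM in nmSC (5.0 ± 0.15), and St8sia5, a sialyltransferase of gangliosides, 65.3 against 3.63 CPM (4.19).

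Negative regulators of MAP kinase signalling were found in both gates. The phosphatase genes Dusp14 (44.8, 47.3, 52.8 and 68.9 CPM against 1.73, 3.48, 2.39 and 1.84 CPM, 4.49 ± 0.24) and Dusp15 (2.18, 356 against 79.1 CPM) were higher in mSC. Dusp6 (-1.95, 149.9 against 546 CPM) and Spry2 (-1.81), which growth factor signalling through ERK is known to induce, were higher in nmSC. Rgs11, a regulator of G protein signalling, was higher in mSC (3.71, 25.7 against 1.95 CPM).

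Cell cycle genes had the largest share of calls toward nmSC among families of at least 10 genes above the background. Of 50 genes of cyclins, cyclin-dependent kinases and their regulators above the background 30 were higher in nmSC, 28 of them by at least 2-fold, and 8 were higher in mSC, with a median of -1.48 beside 0.12 for all genes above the background. Ccnb2, the gene of cyclin B2, read 73.7, 81, 114 and 104 CPM in nmSC and 4.0, 6.25, 10.9 and 10.1 CPM in mSC (-3.63 ± 0.19, adjusted p = 6.02e-10), and the mitotic phosphatase gene Cdc25c 30.5 and 2.31 CPM (-3.71). The gates were far apart in every mouse, but a direction shared by all 4 mice was asked of every gene named by the rule. The cell cycle inhibitor genes Cdkn1a (p21) and Cdkn1b (p27) were on the other side. Cdkn1a read 357, 564, 618 and 1211 CPM in mSC and 146, 118, 147 and 132 CPM in nmSC (2.23 ± 0.22), and Cdkn1b 279 against 139 CPM (1.0). Cdkn1c, a further inhibitor gene, was left out of the naming as a marker of the study. The study reports it as higher in the nmSC gate. Chromatin genes of dividing cells went with the cyclins, with Cenpa, the histone H3 variant of the centromere, at -3.15, Hmgb2 at -3.11 (24.7 against 199 CPM), and 15 of 33 histone genes higher in nmSC against 5 higher in mSC.

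The promoters of 2 cell cycle genes are shown for the letters TTTGAA, the CHR element known from late cell cycle genes. Their genes were the first in the order of change in nmSC whose promoter held these letters, with a chromosome left aside. Genes on that chromosome were passed over whatever their promoter held. The 2 promoters span 250 bases before to 50 bases after a start site as given by RefSeq (GRCm38.p6). That of Ccnb2 lies at chr9:70421505-70421804 on the minus strand. That of Cdca5, which encodes sororin, a guard of sister chromatid cohesion, lies at chr19:6084847-6085146 on the plus strand. Each is written from 5′ to 3′ on the strand of the gene, and capitals mark TTTGAA on either strand, 2 matches in each.
Ccnb2: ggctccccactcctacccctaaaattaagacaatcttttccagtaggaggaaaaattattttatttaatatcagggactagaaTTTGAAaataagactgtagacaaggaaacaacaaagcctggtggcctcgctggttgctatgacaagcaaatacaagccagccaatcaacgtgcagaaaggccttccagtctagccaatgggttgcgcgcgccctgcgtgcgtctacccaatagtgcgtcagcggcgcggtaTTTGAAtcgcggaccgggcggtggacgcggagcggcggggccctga
Cdca5: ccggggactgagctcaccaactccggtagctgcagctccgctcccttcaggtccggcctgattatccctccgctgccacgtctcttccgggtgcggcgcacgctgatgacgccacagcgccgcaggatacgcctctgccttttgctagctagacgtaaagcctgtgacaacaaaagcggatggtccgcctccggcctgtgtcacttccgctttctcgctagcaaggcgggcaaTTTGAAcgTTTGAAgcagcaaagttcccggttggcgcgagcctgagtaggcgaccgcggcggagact
Cdca5 read 22.5, 29.5, 39.4 and 28.6 CPM in nmSC and 2.78, 1.74, 2.4 and 3.49 CPM in mSC (-3.51 ± 0.22).

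Lysosomal genes had the largest share of calls toward mSC among families of more than 10 genes above the background. Of 58 genes of cathepsins and other lysosomal proteins above the background 42 were higher in mSC, 16 of them by at least 2-fold, and 4 were higher in nmSC, none by 2-fold. The median was 0.73, and with library size alone 18 were higher in mSC and 8 in nmSC. Asah1, the acid ceramidase that splits ceramide in the lysosome, read 862, 805, 886 and 930.1 CPM in mSC and 230.2, 253, 273 and 334 CPM in nmSC (1.68 ± 0.12, adjusted p = 2.1e-08), and Ctsl, the gene of cathepsin L, 148, 161, 169.7 and 266 CPM and 52.6, 56.4, 73.9 and 72.5 CPM (1.53 ± 0.15). Ctsc (cathepsin C) was an exception, at 306 against 542 CPM (-0.82).

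The promoters of Ctsl and of Atp6v0e, a subunit of the proton pump that acidifies lysosomes (267 against 99.1 CPM, 1.34), are shown for the letters CACGTG. This E-box lies within the sites of the lysosomal regulator TFEB and also of MYC and many other bHLH factors. Ctsl and Atp6v0e were the first lysosomal genes in the order of change in mSC whose promoter held it, with the same chromosome left aside. The Ctsl promoter lies at chr13:64370471-64370770 on the minus strand and the Atp6v0e promoter at chr17:26676146-26676445 on the plus strand (RefSeq, GRCm38.p6, same window), and capitals mark the 1 match in each.
Ctsl: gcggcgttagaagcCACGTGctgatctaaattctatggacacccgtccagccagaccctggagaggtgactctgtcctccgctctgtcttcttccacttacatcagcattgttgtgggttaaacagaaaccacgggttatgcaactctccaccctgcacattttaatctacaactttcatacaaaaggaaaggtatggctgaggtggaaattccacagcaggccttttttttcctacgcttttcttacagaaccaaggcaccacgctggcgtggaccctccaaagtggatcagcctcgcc
Atp6v0e: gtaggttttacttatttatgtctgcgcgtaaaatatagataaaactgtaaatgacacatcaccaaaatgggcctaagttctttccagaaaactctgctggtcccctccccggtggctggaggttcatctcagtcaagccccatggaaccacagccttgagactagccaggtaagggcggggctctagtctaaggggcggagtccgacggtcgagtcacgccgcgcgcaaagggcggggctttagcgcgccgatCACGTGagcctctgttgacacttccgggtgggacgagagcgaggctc
Mitf, a bHLH factor of the TFEB family, was higher in mSC (0.88, adjusted p = 0.000243), a call that was lost with library size alone.

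Over all families, 9 short motifs were searched on both strands in the RefSeq promoters of genes above the background. They were CCAAT, known as the CCAAT box, TTTGAA of the CHR element, the E2F letters TTTCGCGC and also TTTGGCGC, the sterol response letters TCACCCCAC, the EGR letters GCGTGGGCG, the TEAD letters GGAATG, the AP-1 letters TGACTCA and the E-box CACGTG. None of these motifs contains another, though sites may lie side by side. TTTGAA was in 44.0% of 25 promoters of cyclin and CDK genes higher in nmSC, in 18.9% of promoters of genes at least 2-fold higher in nmSC, in 11.1% of those at least 2-fold higher in mSC, in 12.2% of promoters of genes above the background and in 17.9% of all promoters in the table. CCAAT was in 64.0% of the promoters of these cyclin and CDK genes beside 38.3% for genes above the background and 37.4% of all promoters. Among genes at least 2-fold higher in nmSC and in mSC its shares were 39.8% and 38.5%. CACGTG was in 30.8% of 39 promoters of lysosomal genes higher in mSC beside 9.91% and 7.15%. Its shares among genes at least 2-fold higher in nmSC and in mSC were 6.58% and 9.83%. Members of these families that were not called were not searched as a set. TTTGGCGC was in 1.87% of promoters of genes at least 2-fold higher in nmSC and 0.305% of those higher in mSC, and TTTCGCGC in 1.18% and 0.381%. GGAATG was in 13.4% and 14%, and TGACTCA in 4.32% and 4.42%, in the same order. TCACCCCAC was in 0.295% and 0.915%, and GCGTGGGCG in 0.786% and 1.45%. A match is a stretch of letters and not a site shown to be bound.

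**Figure D5:**
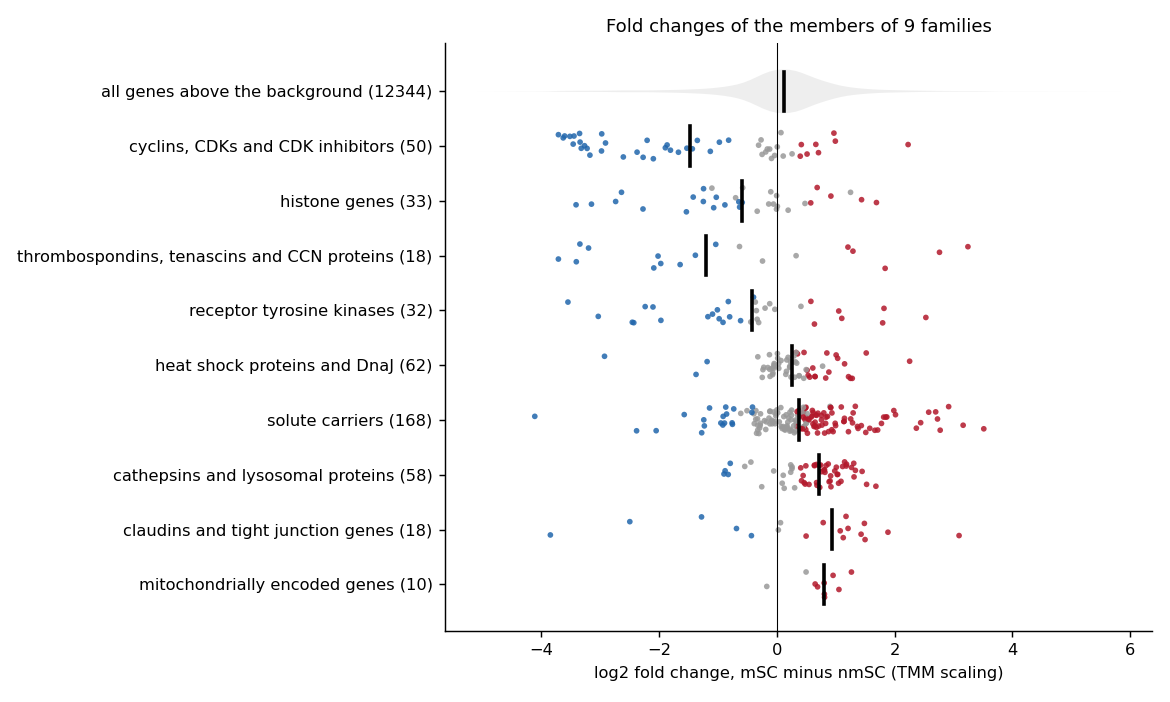
The log2 fold change (mSC minus nmSC, TMM scaling) of each member above the background of 9 families, coloured where called (red higher in mSC, blue higher in nmSC) and grey where not, with a black bar at the median and the distribution of all genes above the background at the top. Cyclin and CDK genes have a median of -1.48 and lysosomal genes one of 0.73.

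Housekeeping families were called to different extents. Of 10 mitochondrially encoded genes above the background 8 were higher in mSC and none in nmSC, with mt-Cytb at 3580.0, 4646, 4463 and 7683 CPM in mSC and 3012, 2568, 2445 and 3247 CPM in nmSC (0.81 ± 0.15) and mt-Nd4 at 0.96; both calls were lost with library size alone, and the share of all counts taken by the mitochondrial genes, 1.42% to 2.04% in mSC and 1.16% to 1.66% in nmSC, did not pass a two-sided exact permutation test (p = 0.343). The permutation test took the libraries as unpaired here too. Of 62 heat shock and DnaJ genes 20 were higher in mSC and 3 in nmSC, led by Hspb2 (2.26). Of 45 proteasome genes 10 were higher in mSC and 3 in nmSC. The shares higher in mSC, 32.3% and 22.2%, lay near or below the 29.0% of all genes above the background, and 28.9% of proteasome genes were called in all, beside 45.0% of all genes. Of 37 tRNA synthetase genes 3 were higher in mSC and 1 in nmSC. The leans of all 3 families turned with library size alone, to 8 and 24, to 0 and 12 and to 0 and 28. Of 45 genes of SR and hnRNP splicing proteins 4 were higher in mSC and 12 in nmSC.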

How the data were processed

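RNA of the 12 libraries had been made with the Smart-Seq2 protocol. The authors deposited counts of reads per gene without normalization, made with STAR 2.6.1c and featureCounts. The submitters' processing notes name mouse build GRCm38.p5, while the methods name a human build, and the gene identifiers are those of mouse. How the counting dealt with strand, repeats and shared exons is not given in the sources used here, and the exons of 38.9% of genes above the background overlap those of another gene, so their counts are less certain. Symbols, positions and exon lengths came from GENCODE M21 (GRCm38), which matched 25664 of 25700 identifiers. Promoters came from the RefSeq table of GRCm38.p6, which matched genes by symbol.

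From the counts, TMM factors, the expression filter and the quasi-likelihood test of edgeR 4.0.16 (R 4.3.3) were run over all 12 libraries with gate and mouse as terms (6 residual degrees of freedom), with Benjamini-Hochberg adjustment. The pairing comes from the labels, which give the mouse of each library. The same-numbered mSC and nmSC libraries deviated from their gate means with correlations of -0.079 to 0.096 across genes. Libraries of different numbers gave -0.095 to 0.123, so these correlations do not bear out the pairing, which rests on the labels. No 2 libraries of a gate were duplicates, since the chi-square of their counts was at least 6.01 per degree of freedom. RPKM used the union of exons.

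Genes were named by rule: in each class and direction the 5 largest changes, overall the 10 largest, and in each family the 2 largest, among called genes above the background with a mean of at least 10 CPM and the same direction in all 4 mice, without the 10 markers of the study and without genes known by number only. Other members were named where a family needed them, and a few genes that the rule names are not reported here. The members and lists were chosen with earlier results of these data known. On simulated counts over 18597 genes with 200 changed genes, the edgeR test recovered 48.4% of 2-fold and 81.8% of 4-fold changes between mSC and nmSC. Of its calls there 4.87% were false. In the data 38.6% of tested genes were called and the scaling decided the split. The simulation held neither feature, so it cannot give the false share of the calls reported here. Values after ± are the SE of the fit or the SD over 4 libraries, and the level given for 3 counts covers counting error only.

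Alternatives were other scalings, tests (DESeq2 1.42.0), filters and background rules, thinned counts, no mouse term, and the fit without each library.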

Additional observations from a re-analysis of the deposited data

Results flagged for a closer look

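The level of each of 185 genes named here was compared among the 4 libraries of each gate, and a library is listed where its gap to the nearest of the others, as a share of the range of the 4, passed the 95% critical value of Dixon's test. This was so in 24 of 370 sets of 4 values (6.49%), where chance gives about 1 in 20, and in 14 of the 24 the library was that of mSC mouse 4. Values are given as the CPM of that library, the range of the other 3 and the ratio of gap to range.

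The library of mSC mouse 4 was the highest for Cntf (252 CPM against 143 to 158, ratio 0.862), H2-DMa (206 CPM against 124 to 137, ratio 0.835), Serpinb6b (66.7 CPM against 48.2 to 49.7, ratio 0.914), Zfp91 (313 CPM against 183 to 201, ratio 0.859), Ackr1 (29.5 CPM against 17.4 to 18.5, ratio 0.907), Apod (37.6 CPM against 14.9 to 17.7, ratio 0.876), Sostdc1 (218 CPM against 111 to 126, ratio 0.854) and Cd9 (10507 CPM against 5605 to 6439, ratio 0.83). It was the lowest for Fam107a (52 CPM against 60.7 to 62.3, ratio 0.838), Epha6 (16.3 CPM against 29.8 to 32.3, ratio 0.843), Ephb6 (217 CPM against 408 to 417, ratio 0.952), Tgfbr3 (95.7 CPM against 183 to 195, ratio 0.884), Nid2 (196 CPM against 542 to 569, ratio 0.927) and Col1a2 (1208 CPM against 1997 to 2051, ratio 0.936). Zfp91 shares exons with Cntf. All of these genes stayed called with the same sign without this library.

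For mouse 1, the mSC library was the highest for Adamts15 (6.04 CPM against 2.49 to 3.03, ratio 0.85) and Kif13b (129 CPM against 88 to 94.8, ratio 0.832) and the lowest for Col8a1 (2.24 CPM against 3.96 to 4.25, ratio 0.852). For mouse 3, the mSC library was the highest for Gfra2 (3.49 CPM against 2.74 to 2.86, ratio 0.836) and Pmel (118 CPM against 102 to 104, ratio 0.851). For mouse 1, the nmSC library was the highest for Zfp36l1 (87.7 CPM against 54.7 to 57.7, ratio 0.911). For mouse 2, the nmSC library was the lowest for Spint1 (3.82 CPM against 4.21 to 4.26, ratio 0.906). For mouse 3, the nmSC library was the highest for Sorcs2 (97.3 CPM against 76.1 to 78.7, ratio 0.874) and the lowest for Cxcl1 (12.8 CPM against 21 to 21.9, ratio 0.903). For mouse 4, the nmSC library was the highest for Col8a2 (4.28 CPM against 2.11 to 2.39, ratio 0.872).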

How the results depend on the processing

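The calls turned on the scaling, the background rule and the size of change asked for. With library size alone, 1362 genes were higher in mSC and 6117 in nmSC, of transcription factor genes 22 and 455, of receptor genes 27 and 129 and of secreted factor genes 53 and 137. Without the top 50 genes in the library size the counts were 1934 and 4315 genes, and 37 and 306 transcription factor genes. Without the background rule 3544 genes, 167 transcription factor, 186 receptor and 143 secreted factor genes were higher in nmSC. With at least 2-fold 1317 genes, 26 transcription factor and 29 receptor genes were higher in mSC, and 1106 genes and 48 transcription factor genes in nmSC. The other counts under these and the remaining alternatives, among them the Wald test of DESeq2 (4022 and 1783 genes), stayed within 1.5 times.

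Leaving out 1 library gave 2853 to 3847 genes higher in mSC and 1584 to 2071 in nmSC, 60 to 111 and 80 to 112 transcription factor genes, 48 to 68 and 73 to 77 receptor genes, and 73 to 86 and 84 to 93 secreted factor genes. Without the mouse as a block the counts were 3750 genes (mSC) and 2027 (nmSC), and the pairing changed no call of a named gene. The background stood 2.41 times higher in nmSC with totals as deposited.

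Of 3145 values of 185 named genes under other settings, 3133 kept their sign and their side of the threshold. Most of these genes were chosen as called genes with the largest changes, so this share was largely set by the choice. It does not hold for genes at large, whose calls turned on the scaling. Sox10, not called, turned to 0.00377 without the block and ranged from -0.35 to 0.22 without 1 library each (0.13 without mSC mouse 1, 0.22 without nmSC mouse 1), and Egr2 to -0.084 with library size alone, where Sox10 was called lower in mSC (-0.69). Calls of Mitf, Adgrg1, Egr2, Angpt2, mt-Nd4 and mt-Cytb were lost with library size alone or without the top 50 genes. Genes of 3 counts or fewer were not examined on their own.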

Other observations

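Cytoskeletal genes, not described above, were divided between the gates by member. The LIM kinase gene Limk2 (1.68, 142 against 44.3 CPM) and the collapsin response mediator gene Dpysl2 (1.68, 1035 against 314 CPM) were higher in mSC. The tubulin genes Tubb6 (-3.22, 19.9 against 186 CPM) and Tuba1c (-3.02) and the non-muscle myosin gene Myh10 (-2.01) were higher in nmSC. Tagln (2.38, 24.9 against 4.72 CPM) and its paralogue Tagln2 (-2.06, 26.3 against 109 CPM) differed in opposite directions. Of 50 kinesin and dynein genes 19 were higher in mSC, among them the cargo motor gene Kif13b (2.02) and Dynlt3 (1.7), and 16 in nmSC, among them the mitotic motor genes Kif18b (-3.78) and Kif2c (-3.59). With library size alone the direction turned (9 and 24).

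Second messenger enzymes gave a further contrast. The phosphodiesterase genes Pde4b (-3.11, 8.58 against 73.6 CPM) and Pde4d (-2.69, 7.59 against 48.9 CPM), whose products break down cyclic AMP, were higher in nmSC, and the adenylyl cyclase gene Adcy1 (1.54, 48 against 16.4 CPM), whose product makes it, was higher in mSC. Angpt2 was higher in mSC (0.86) and Angptl2 in nmSC (-1.59). Among protease regulators Spint1 was higher in mSC (3.57, 49.9 against 4.13 CPM) and the plasminogen activator gene Plat in nmSC (-1.0, 49.6 against 99.6 CPM). Qk, whose product binds myelin transcripts and acts in their splicing, was among the most abundant RNA-binding protein genes higher in mSC, with 2325, 2307, 2163 and 2694 CPM in mSC and 1018, 836, 619 and 1139.8 CPM in nmSC (1.41 ± 0.15).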
